A study of Mus musculus with 6 samples.

Results

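The genes described here are neighbours of Prmt7 on mouse chromosome 8, taken by position, with 4 left out by name. They were chosen with earlier results of these data known. They are the 133 genes of the deposited table, of 14617 listed, whose start lies from 96211054 to 116251694 in mm10, within 10 Mb of either end of Prmt7. The rule leaves out 4 genes of that window, which are Prmt7 itself, Aars and the proteasome genes Psmb10 and Psmd7. Start here means the lower coordinate of the listed span, whatever the strand, and distances run from it to the Prmt7 span. The members begin 3.58 Mb before Prmt7 with Cdh11 and end 9.45 Mb after it with Maf, and 61 of them lie within 1 Mb. The other 635 listed genes of chromosome 8 serve for comparison. The study sequenced RNA of the tibialis anterior, a fast muscle of the lower leg, in PRMT7-/- mice (KO) and PRMT7+/+ mice (WT). All mice were C57BL/6 and 8 months old, with 3 labelled per genotype. The sources used here do not say how the null allele was made or whether the animals were littermates.

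PRMT7 is an enzyme that places single methyl groups on arginine residues of proteins. Genes that lie close to a disrupted gene are inherited together with it, and neighbours can share promoters, enhancers and transcript ends, so a level beside such a locus can differ for reasons of position. The question here is whether the genes around Prmt7 differed between the genotypes more often, or by more, than genes farther along the same chromosome.

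The deposited means could be taken apart exactly into counts of 2 libraries per genotype, called KO library 1 and 2 and WT library 1 and 2, which cannot be tied to mouse numbers. They held 22629288 to 24814798 counts over the listed genes. No header names the genotype of a column, so the genotypes were assigned by the word order in the name of the table (WT, then KO), and all directions given below depend on this. The fibre markers Acta1, Ckm, Tnnt3, Pvalb, Myh4 and Mylpf were all abundant, as in the labelled tissue, and summed to 2560680 and 2987240 normalised counts in the KO libraries, against 1924270 and 2321570 in the WT libraries. Xist, the RNA that silences an X chromosome in female cells, had 1.82 and 1.03 normalised counts in the KO libraries, against 10800 and 11546 in the WT libraries. The Y-linked Ddx3y had 2824 normalised counts in KO library 2 and no count in the other 3 libraries, where up to 3 counts per library would be allowed. Xist presence and genotype cannot be told apart in these libraries. Markers of Schwann cells, which wrap nerve fibres, stood out in KO library 1. The 5 markers summed to 23907 and 11524 normalised counts in the KO libraries, against 8171 and 8618 in the WT libraries. KO library 1 was also the highest for the summed adipocyte, macrophage, and fibroblast and tendon markers, at 18956, 6272 and 44873. The next highest sums were 16593 (WT library 2), 5698 (WT library 1) and 36990 (KO library 2).

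Prmt7 itself (chromosome 8, 106211054 to 106251694) had 706 and 718 normalised counts in the KO libraries, against 885 and 844 in the WT libraries. The 2 KO values were under the 2 WT values, with a limma log2 difference of -0.28 ± 0.0959 (SE, adjusted p = 0.18). In the authors' deposited table its FDR was 0.587. The labels do not say which exons were removed, so this level does not check the knockout.

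The member closest to the start of Prmt7 is Slc7a6os (chromosome 8, 106200438 to 106210933), whose yeast homologue Iwr1 helps to bring RNA polymerase II into the nucleus. It lies on the opposite strand, and the RefSeq starts of both genes are only 121 bases apart, so the region upstream of one is the beginning of the other. The RefSeq window of Slc7a6os (GRCm38.p6, chr8:106210884-106211183, minus strand, 250 bases before to 50 after the start) is shown because it holds both starts. Capitals mark the stretch from the Prmt7 start to the Slc7a6os start.
Slc7a6os: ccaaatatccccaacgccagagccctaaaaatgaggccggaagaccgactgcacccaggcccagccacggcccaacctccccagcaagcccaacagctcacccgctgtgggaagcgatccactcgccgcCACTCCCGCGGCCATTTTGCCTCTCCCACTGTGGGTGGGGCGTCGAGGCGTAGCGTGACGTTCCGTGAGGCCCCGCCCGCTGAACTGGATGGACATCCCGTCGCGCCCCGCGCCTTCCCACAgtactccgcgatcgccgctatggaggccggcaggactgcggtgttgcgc
Slc7a6os had 303 and 333 normalised counts in the KO libraries, against 278 and 342 in the WT libraries. The genotypes overlapped, and the limma log2 difference was 0.04 ± 0.144 (SE, adjusted p = 0.906). At the other end of Prmt7 lies Smpd3, the gene of a neutral sphingomyelinase, which is transcribed towards it. The listed spans are 853 bases apart, while the GENCODE M21 models of the pair overlap by 247 bases. The sources used here do not say whether reads were counted by strand, so reads in such an overlap could be assigned to either. Smpd3 had 262 and 103 normalised counts in the KO libraries, against 135 and 57.4 in the WT libraries. The genotypes overlapped (log2 difference 0.89 ± 0.606, adjusted p = 0.49 by limma). Smpd3 was highest in KO library 1, where the markers of Schwann cells and of several other cell types were also highest. The part of those cells in this value was not tested.

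Calls were made for 2.71% of all listed genes in the authors' deposited table and for 0.889% of genes tested with limma. No call among a few genes therefore says little. None of the 6 listed members nearest to Prmt7 on either side passed the FDR of 0.05 in the authors' deposited table or the limma threshold. Before Prmt7 these were, besides Slc7a6os, the amino acid exchanger gene Slc7a6, the lysosomal phospholipase gene Pla2g15, Nfatc3, which encodes a calcineurin-regulated transcription factor, the tRNA dihydrouridine synthase gene Dus2 and Ddx28, a helicase gene of mitochondrial ribosome assembly. Slc7a6 had 494 and 440.3 normalised counts in the KO libraries, against 359 and 418 in the WT libraries. Pla2g15 had 402 and 356 in the KO libraries, against 300.2 and 319 in the WT libraries. For both genes the KO libraries lay above the WT libraries, with limma adjusted p-values of 0.298 for Slc7a6 and 0.255 for Pla2g15. Nfatc3 had 1215 and 1115 normalised counts in the KO libraries, against 1306 and 1270 in the WT libraries. Ddx28 had 312 and 342 in the KO libraries, against 401 and 392.4 in the WT libraries, and Dus2 had 226 and 195 in the KO libraries, against 259 and 236 in the WT libraries. These 3 genes had both KO libraries below both WT libraries, with limma log2 differences of -0.15 for Nfatc3, -0.28 for Ddx28 and -0.24 for Dus2. Of all genes tested with limma, 25.6% had both KO libraries above both WT libraries and 26.2% had both below.

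After Prmt7 the 6 were Smpd3, the zinc finger gene Zfp90, the cadherin genes Cdh3 and Cdh1, Tango6, a gene of Golgi organisation, and Has3, which encodes a hyaluronan synthase. Zfp90 had 191 and 184 normalised counts in the KO libraries, against 143 and 139 in the WT libraries. Tango6 had 259 and 266 in the KO libraries, against 350.1 and 329.7 in the WT libraries. The libraries of the genotypes did not overlap for either gene, and the limma adjusted p was 0.211 for Zfp90 and 0.167 for Tango6. Cdh3, the gene of P-cadherin, had 19.98 and 9.28 normalised counts in the KO libraries, against 9.97 and 8.51 in the WT libraries, so that it was near the lower limit of the table. Has3 had 429 and 570.3 normalised counts in the KO libraries, against 177 and 302 in the WT libraries. No overlap between the genotypes was seen for 51.8% of all genes tested with limma. Both KO libraries of Has3 were above both WT libraries, with a log2 difference of 1.10 ± 0.27 and an adjusted p of 0.11 by limma. Its FDR was 0.12 in the authors' deposited table.

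**Figure D1:**
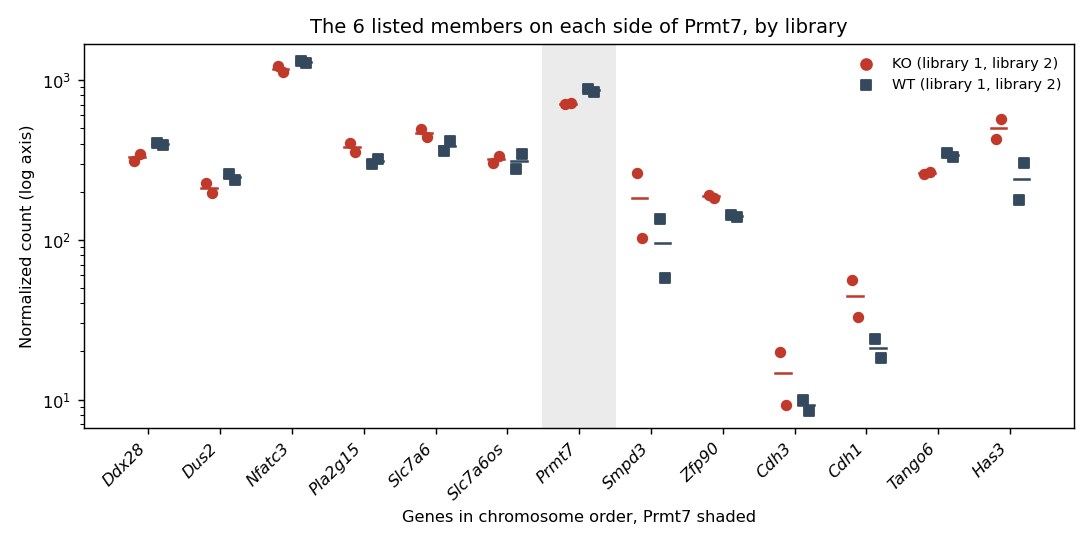
Normalised counts (vertical log axis) of the 6 listed members on each side of Prmt7 in chromosome order, with Prmt7 shaded; red circles are the KO libraries, dark squares the WT libraries and short lines the means of 2. Slc7a6os, beside the shared start region, has overlapping genotypes between 278 and 342, and Smpd3, on the other side of Prmt7, has its highest value of 262 in KO library 1.

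Over the whole window, 4 of the 133 members passed an FDR of 0.05 in the authors' deposited table, against 2.71% of all listed genes. One was higher in KO, Tppp3, against 1.01% of all genes called higher, and 3 were lower, Ldhd, Cyb5b and Pdpr, against 1.7% called lower. That is 3.01% of the members, close to the 2.71% of all genes and the 2.2% (14 of 635) of other chromosome 8 genes. An unadjusted p under 0.05 was reached by 16 members (12%), against 11.1% of all genes and 9.76% of other chromosome 8 genes in the authors' deposited table. With limma, 3 of the 127 members with a mean of at least 10 normalised counts passed an adjusted p of 0.05, which is 2.36%, against 0.649% (4 of 616) of other chromosome 8 genes and 0.889% of all genes tested. These 3 were Tppp3, higher in KO (background 0.427%), and Cyb5b and Ldhd, lower in KO (background 0.463%). Both the number of calls and the members called changed when 1 library was left out, so these 3 calls depend on which libraries are used.

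Tppp3 (chromosome 8, 105467492 to 105471422, 0.744 Mb before Prmt7) encodes a protein that promotes the assembly of tubulin into microtubules and is known as a marker of tendon sheath cells. It had 4066 and 3487 normalised counts in the KO libraries, against 2244 and 2222 in the WT libraries. Both KO libraries were well above both WT libraries. The deposited means differed 1.69-fold (FDR 6.03e-05 in the authors' deposited table), and the limma log2 difference was 0.75 ± 0.115 (adjusted p = 0.0455). Without WT library 1 the adjusted p was 0.165 and without WT library 2 it was 0.161, at log2 differences of 0.76 and 0.75. The 5 fibroblast and tendon markers Pdgfra, Dcn, Tnmd, Scx and Fmod, of which Dcn was the most abundant, summed to 44873 and 36990 normalised counts in the KO libraries, against 31655 and 30448 in the WT libraries. Both KO libraries were above both WT libraries for each of these markers except Pdgfra, which had 2422 and 1605 normalised counts in the KO libraries, against 1652 and 1433 in the WT libraries. Over all genes tested with limma, 25.6% had both KO libraries above both WT libraries. None of the 5 markers passed the FDR, and their part in the level of Tppp3 was not tested. A change of RNA per cell and a change in the number of cells of a type cannot be told apart in whole muscle.

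The 3 members that were lower in KO encode proteins of mitochondria. Ldhd (chromosome 8, 111626271 to 111630322, 5.37 Mb after Prmt7) encodes the D-lactate dehydrogenase of mitochondria. It had 738 and 619 normalised counts in the KO libraries, against 1391 and 1441 in the WT libraries. Both KO libraries were near the middle of the distance from 0 to the WT level, and the fitted log2 difference was -1.07 ± 0.115 (limma adjusted p = 0.0193, and FDR 9.40e-08 in the authors' deposited table). Cyb5b (chromosome 8, 107150661 to 107187470, 0.899 Mb after Prmt7), the cytochrome b5 of the mitochondrial outer membrane, had 2491 and 2426 normalised counts in the KO libraries, against 4549 and 4241 in the WT libraries. The KO libraries nearly coincided and were far below both WT libraries, with a log2 difference of -0.84 ± 0.106 (limma adjusted p = 0.03, and FDR 4.14e-06 in the authors' deposited table). Pdpr (chromosome 8, 111094745 to 111135144, 4.84 Mb after Prmt7) encodes the regulatory subunit of the phosphatase that activates pyruvate dehydrogenase. It had 1511 and 1137 normalised counts in the KO libraries, against 2384 and 2262 in the WT libraries. Its genotypes did not overlap either, but the KO libraries differed from each other and the limma adjusted p was 0.0552 at -0.82 ± 0.143, beside an FDR of 9.51e-05 in the authors' deposited table. Without WT library 1 the limma adjusted p was 0.0853 for Ldhd and 0.138 for Cyb5b, and without WT library 2 it was 0.0511 for Ldhd and 0.085 for Cyb5b. The log2 difference of Pdpr was -1.03 when KO library 1 was left out and -0.62 when KO library 2 was, each with 1 KO library left. The non-coding gene 9430091E24Rik (111127444 to 111145498, opposite strand) overlaps the end of the Pdpr span, with 29.96 and 35.1 normalised counts in the KO libraries, against 29.9 and 35.1 in the WT libraries.

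**Figure D2:**
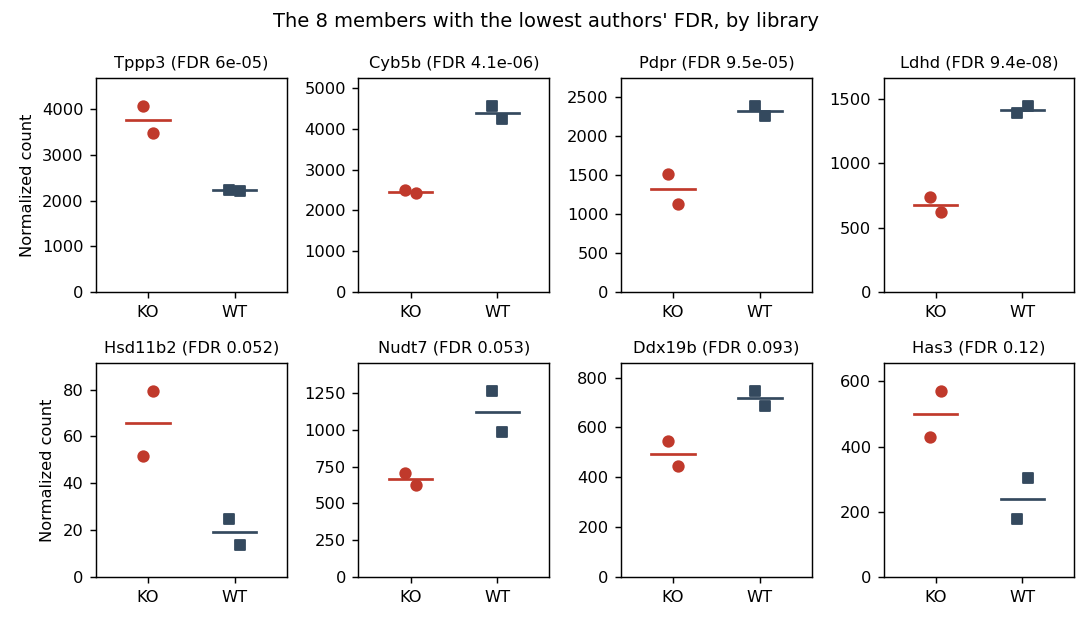
Normalised counts (vertical axes, from 0) of the 8 members with the lowest FDR in the authors' deposited table; red circles are the KO libraries, dark squares the WT libraries and lines the means of 2. Tppp3 is higher in KO and Cyb5b, Pdpr and Ldhd are lower. The genotypes overlap in none of the 8 panels, which were chosen by FDR from the same libraries. Of all genes tested with limma, 51.8% had no overlap.

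The RefSeq windows around the starts of the 3 members that were lower in KO are shown because these genes share both direction and a place in the mitochondrion. They run from 250 bases before to 50 after the start in GRCm38.p6, at chr8:107150411-107150710 (plus strand) for Cyb5b, chr8:111094495-111094794 (plus strand) for Pdpr and chr8:111630287-111630586 (minus strand) for Ldhd. Capitals mark matches to the 4 motifs searched on both strands, which were AAGGTCA (a half-site of ERR nuclear receptors), TGACGTCA (the cyclic AMP response element), the palindromic NRF1 site and CCAAT; none of the 4 contains another.
Cyb5b: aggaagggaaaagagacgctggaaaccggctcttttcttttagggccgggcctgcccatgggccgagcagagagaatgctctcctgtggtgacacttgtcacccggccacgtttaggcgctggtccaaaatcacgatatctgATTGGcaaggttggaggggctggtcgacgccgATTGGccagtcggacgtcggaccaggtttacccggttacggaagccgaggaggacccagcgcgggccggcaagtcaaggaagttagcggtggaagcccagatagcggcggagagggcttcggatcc
Pdpr: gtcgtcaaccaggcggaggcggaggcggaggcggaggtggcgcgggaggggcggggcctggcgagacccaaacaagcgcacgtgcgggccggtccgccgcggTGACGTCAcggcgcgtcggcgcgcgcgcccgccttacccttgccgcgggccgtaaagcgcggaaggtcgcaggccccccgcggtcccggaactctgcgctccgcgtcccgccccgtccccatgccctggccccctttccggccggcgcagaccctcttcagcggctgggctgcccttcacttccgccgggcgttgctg
Ldhd: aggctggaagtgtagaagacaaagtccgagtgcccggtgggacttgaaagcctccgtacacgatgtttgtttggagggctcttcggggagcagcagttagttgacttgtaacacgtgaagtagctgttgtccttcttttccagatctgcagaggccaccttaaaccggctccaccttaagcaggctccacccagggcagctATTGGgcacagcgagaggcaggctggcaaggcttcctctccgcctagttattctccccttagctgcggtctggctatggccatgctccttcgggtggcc
Cyb5b held 2 matches and Ldhd 1 match to CCAAT, all on the reverse strand as ATTGG, a motif found in 37.9% of the 27025 promoter windows (1 per gene). Pdpr held 1 match to TGACGTCA, present in 1.88% of all windows. No ERR half-site (4.66% of all windows) and no NRF1 site (0.977%) lay in these 3 windows, which says only that these letters are not there. Among the 89 members with a RefSeq window, 30 (33.7%) held CCAAT, 7 (7.87%) the cyclic AMP response element, 2 (2.25%) the ERR half-site and 3 (3.37%) the NRF1 site.

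Hsd11b2 and Nudt7 were just above the FDR threshold in the authors' deposited table, at 0.0516 and 0.0532. Hsd11b2, the enzyme that inactivates glucocorticoids, had 51.8 and 79.4 normalised counts in the KO libraries, against 24.9 and 13.8 in the WT libraries, 0.692 Mb before Prmt7. Nudt7, a peroxisomal enzyme that breaks down coenzyme A, had 708 and 623 in the KO libraries, against 1265 and 985 in the WT libraries, 7.88 Mb after Prmt7. Neither gene overlapped between genotypes, and the adjusted p by limma was 0.0775 for Hsd11b2 and 0.0642 for Nudt7. No overlap was seen for 51.8% of all genes tested with limma. Ddx19b is an RNA helicase gene of messenger RNA export. It had 546 and 444 normalised counts in the KO libraries, against 746 and 687 in the WT libraries (limma adjusted p = 0.0909). Its near-identical neighbour Ddx19a had 630.2 and 678 in the KO libraries, against 650.3 and 592 in the WT libraries. Reads shared by this pair could be split between them by the counting, so the value of Ddx19b is uncertain.

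Distance from Prmt7 did not order the results. Among the 61 members within 1 Mb the median log2 ratio in the authors' deposited table was 0.04, and 2 passed the FDR. Among the 21 members from 1 to 2.5 Mb the median was -0.04 and 0 passed in that table, where 2 had an unadjusted p under 0.05 and limma also called 0. The 28 members from 2.5 to 5 Mb had a median of 0.0033 with 1 passing, and the 23 members from 5 to 10 Mb a median of 0.11 with 1 passing in the authors' deposited table. The median over all members was 0.01, against -0.03 for other chromosome 8 genes and 0.0062 for all listed genes in that table. Steps of 10 Mb along the rest of the chromosome, where they held at least 20 genes, had medians from -0.06 to 0.11 and from 0% to 4.35% of genes called. The members' medians in each distance class lay close to that range. Across the 108 members with a mean of at least 50, Spearman's rho of the absolute log2 ratio with distance was 0.0787, a description over genes that share the same 4 libraries.

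The size of the ratios around Prmt7 lay near the upper end of the range of other stretches of the chromosome. The median absolute log2 ratio in the authors' deposited table was 0.23 for the members, against 0.17 for other chromosome 8 genes and 0.19 for all listed genes. With genes of a mean of at least 50 alone it was 0.18 for 108 members, against 0.14 for 533 other chromosome 8 genes and 0.16 for 12100 genes in all. Among the 10 Mb steps of other chromosome 8 genes it was 0.23 for the 107 genes from 10 to 20 Mb after Prmt7, 0.22 for the 72 genes from 10 to 20 Mb before it and 0.32 for the 32 genes from 100 to 110 Mb before it, over all listed genes of each step in the authors' deposited table. These were the highest of the steps, and the lowest was 0.0962, for the genes from 70 to 80 Mb before Prmt7. With a mean of at least 50 it was 0.19 in the step from 10 to 20 Mb after Prmt7. It was then 0.15 from 10 to 20 Mb before Prmt7 and 0.12 from 100 to 110 Mb before it. Members with a mean of at least 50 had 0.196 within 1 Mb and 0.187 from 1 to 2.5 Mb. Farther out they had 0.157 from 2.5 to 5 Mb and 0.255 from 5 to 10 Mb. These differences between sets were not tested. The libraries of the genotypes did not overlap for 76 of 127 members (59.8%), against 51.8% of all genes tested with limma and 51.3% of other chromosome 8 genes. Both KO libraries were above for 32 members (25.2%), against 25.6% of all genes, and below for 44 (34.6%), against 26.2% of all genes and 30% of other chromosome 8 genes. By distance the share without overlap was 60.3% within 1 Mb, 63.2% from 1 to 2.5 Mb, 39.3% from 2.5 to 5 Mb and 81.8% from 5 to 10 Mb, so it did not decline with distance. The last of these classes held 22 members.

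**Figure D3:**
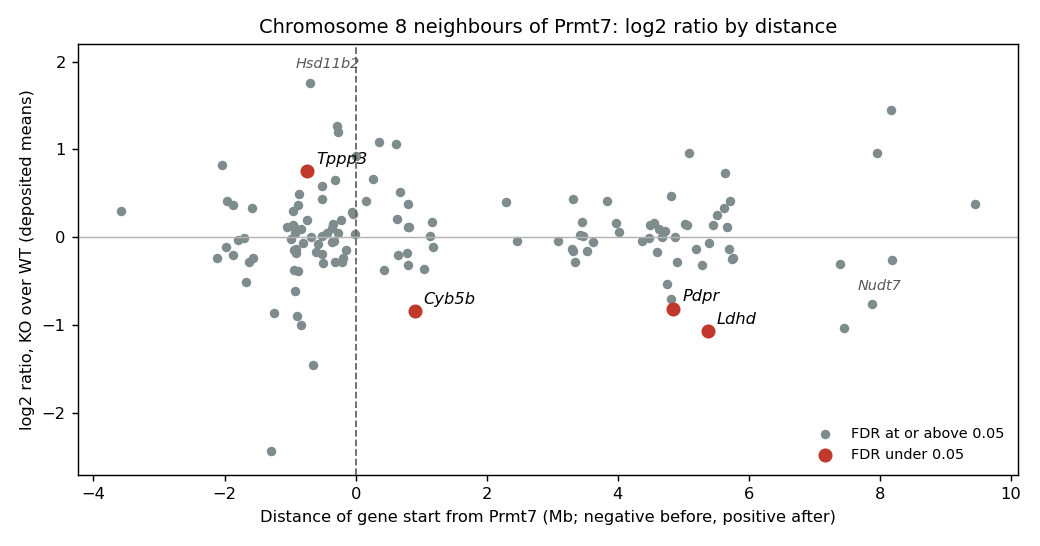
The log2 ratio of KO over WT in the authors' deposited table (vertical axis) for the 133 members by distance from Prmt7 (horizontal axis, Mb). The 4 members under an FDR of 0.05 are in red. The gene start on the axis is the lower coordinate of the listed span, whatever the strand. Members on both sides scatter around 0, and the 4 lie between 0.744 and 5.37 Mb from Prmt7.

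**Figure D4:**
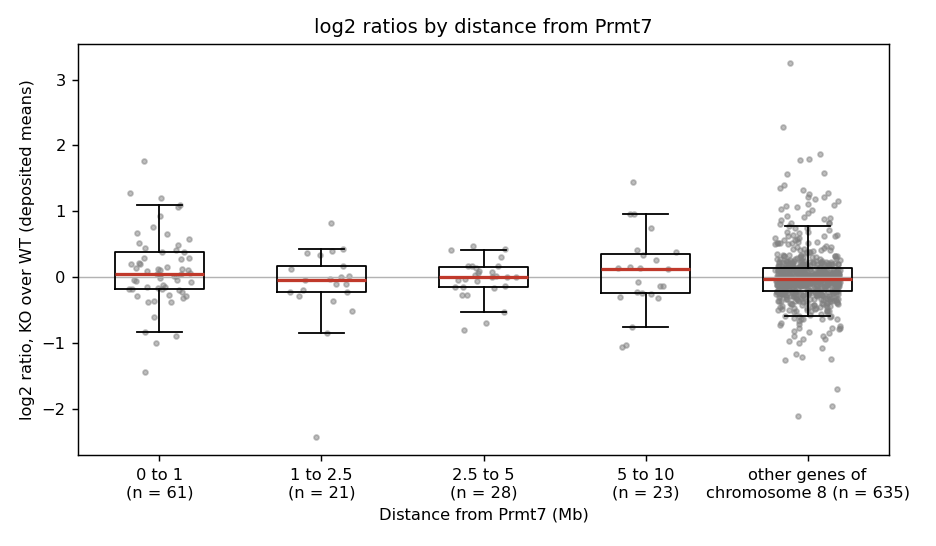
The log2 ratios of KO over WT in the authors' deposited table by distance class (61, 21, 28 and 23 members), beside 635 other genes of chromosome 8; red lines are medians, boxes the middle 50% of genes, whiskers the 5th to 95th percentile and points single genes. All medians lie between -0.04 and 0.11.

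By function, 106 of the 133 members fell into at least 1 of 11 lists, which were chosen with earlier results of these data known. The calls came from metabolic enzymes and from muscle and cytoskeleton genes. Of 19 metabolic enzymes 3 fell, 0 rose and 16 did not pass the FDR in the authors' deposited table, where 1.7% of all listed genes were called lower and 1.01% higher. The list median log2 ratio in the authors' deposited table was 0.02, against 0.0062 over all listed genes. Those that fell were Ldhd, Cyb5b and Pdpr, the same 3 calls as above. Other mitochondrial members of that list were nearer to their WT level. Pdp2, a catalytic subunit of the phosphatase that Pdpr regulates, had 130 and 112 normalised counts in the KO libraries, against 159 and 136 in the WT libraries. Dhodh, the pyrimidine synthesis enzyme of the inner membrane, had 328 and 307 in the KO libraries, against 365 and 405 in the WT libraries, and Tk2, the mitochondrial thymidine kinase, had 259 and 259.9 in the KO libraries, against 278 and 279.7 in the WT libraries. All 3 had both KO libraries below both WT libraries, as had 26.2% of all genes tested with limma. None of the 3 passed, at FDRs of 0.865 for Pdp2, 0.743 for Dhodh and 0.97 for Tk2 in the authors' deposited table. These 3 were picked after their values were seen, so their shared direction says nothing about mitochondrial genes as a set. Of the 18 metabolic enzymes with a mean of at least 10, both KO libraries were above for 7 and below for 8.

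Of 16 muscle and cytoskeleton genes 1 rose, Tppp3, against 1.01% of all listed genes called higher, and 15 did not pass, at a median log2 ratio of -0.02 in the authors' deposited table. Sntb2, the beta-2 syntrophin of the dystrophin complex, had 576 and 481 normalised counts in the KO libraries, against 378 and 360.5 in the WT libraries. Nol3, an inhibitor of cell death in muscle, had 814 and 1041 in the KO libraries, against 1243 and 1151 in the WT libraries. Neither overlapped between genotypes, as was true of 51.8% of all genes tested with limma. Their limma adjusted p-values were 0.0962 for Sntb2 and 0.191 for Nol3. In the list of 18 membrane traffic and autophagy genes none passed the FDR in the authors' deposited table. There the log2 ratio was below 0 for 13 of them and above 0 for 5. The list median was -0.14, against 0.0062 over all listed genes and -0.03 for other chromosome 8 genes. Ratios above 0 were found for 50.9% of all listed genes and 45.2% of other chromosome 8 genes. This list was not tested against those sets. Its most abundant member, the autophagy gene Gabarapl2, had 2107 and 2637 normalised counts in the KO libraries, against 2704 and 2484 in the WT libraries, with overlap. Exoc3l, related to a subunit of the exocyst, had 175 and 200.1 in the KO libraries, against 303 and 269 in the WT libraries, without overlap (limma adjusted p = 0.0931).

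None of the 15 transcription regulators passed the FDR in the authors' deposited table, at a median log2 ratio of -0.05. Nfat5, which drives the response to osmotic stress, had 1862 and 1513 normalised counts in the KO libraries, against 2207 and 2137 in the WT libraries. Maf, the most abundant of the list and the last member of the window, had 3356 and 4214 in the KO libraries, against 2538 and 3297 in the WT libraries. Both KO libraries were below for Nfat5 (limma adjusted p = 0.168) and above for Maf (0.272). Over all genes tested with limma, 26.2% had both KO libraries below and 25.6% had both above. Of 8 telomere and chromosome proteins none passed, with Ctcf, the insulator protein, at 1202 and 1222 normalised counts in the KO libraries, against 1241 and 1309 in the WT libraries. Of 17 genes of RNA processing and translation none passed either. Kars, the lysyl-tRNA synthetase, had 1791 and 1941 normalised counts in the KO libraries, against 2413 and 2000.2 in the WT libraries, with both KO values under both WT values and WT library 1 the highest (limma adjusted p = 0.333). Of 5 solute carriers and ion transport genes none passed, and Atp6v0d1, a subunit of the vacuolar proton pump, had 1295 and 1228 in the KO libraries, against 1290 and 1217 in the WT libraries.

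Of 4 cadherins none passed. Cdh5, the cadherin of endothelial cells, was the most abundant member per kilobase of exon, at 2513 normalised counts per kb in KO and 2947 in WT as means of 2 libraries. It had 10617 and 10505 normalised counts in the KO libraries, against 12318 and 12451 in the WT libraries, with both KO libraries below (log2 difference -0.23 ± 0.131, limma adjusted p = 0.381). The 5 endothelial markers Pecam1, Kdr, Tek, Emcn and Tie1 summed to 19664 and 18806 normalised counts in KO, against 23897 and 22876 in WT. Only 1 of them, Kdr, passed the FDR in the authors' deposited table, at 5150 and 4779 in KO, against 7757 and 6792 in WT. Both KO libraries were below both WT libraries for each marker except Tek, which had 2058 and 1895 in KO, against 1920 and 2100 in WT. Among all genes tested with limma, 26.2% had both KO libraries below both WT libraries. The part of endothelial cells in the level of Cdh5 was not tested. Cdh1, the cadherin of epithelia, had 56.3 and 33.0 normalised counts in the KO libraries, against 23.9 and 18.1 in the WT libraries. Outside that list, Fa2h, a metabolic enzyme that makes hydroxylated lipids of myelin, had 128 and 50.5 in the KO libraries, against 41.9 and 49.98 in the WT libraries, and Vat1l, which is in no list, had 136 and 43.3 in the KO libraries, against 49.9 and 42.5 in the WT libraries. All 3 were highest in KO library 1. The markers of Schwann cells, adipocytes, macrophages, and fibroblast and tendon cells were also highest there, and their part in these values was not tested. None of these 3 passed (limma adjusted p = 0.196 for Cdh1, 0.365 for Fa2h and 0.488 for Vat1l).

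Of 3 chemokine-like factors none passed, and Cmtm3 had 1026 and 969 normalised counts in the KO libraries, against 846 and 699.7 in the WT libraries (limma adjusted p = 0.159). Both carboxylesterases were low. Ces2g had 33.6 and 27.8 normalised counts in the KO libraries, against 70.8 and 40.4 in the WT libraries, and Ces2e had 1 and 3 counts in the KO libraries, against 13 and 8 in the WT libraries. Both had KO below WT in every library, and neither passed the FDR in the authors' deposited table. Of all genes tested with limma, 26.2% had both KO libraries below both WT libraries. Ces2e had a mean under 10 and was not fitted with limma. Of 10 genes of cell death and immune signalling none passed. Among them Hp, the gene of haptoglobin, which adipocytes also make, had 579 and 129 normalised counts in the KO libraries, against 230.4 and 295 in the WT libraries. The adipocyte marker Adipoq was likewise highest in KO library 1, at 1089 and 306 normalised counts in the KO libraries, against 265 and 284 in the WT libraries. The part of adipocytes in the level of Hp was not tested.

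**Figure D5:**
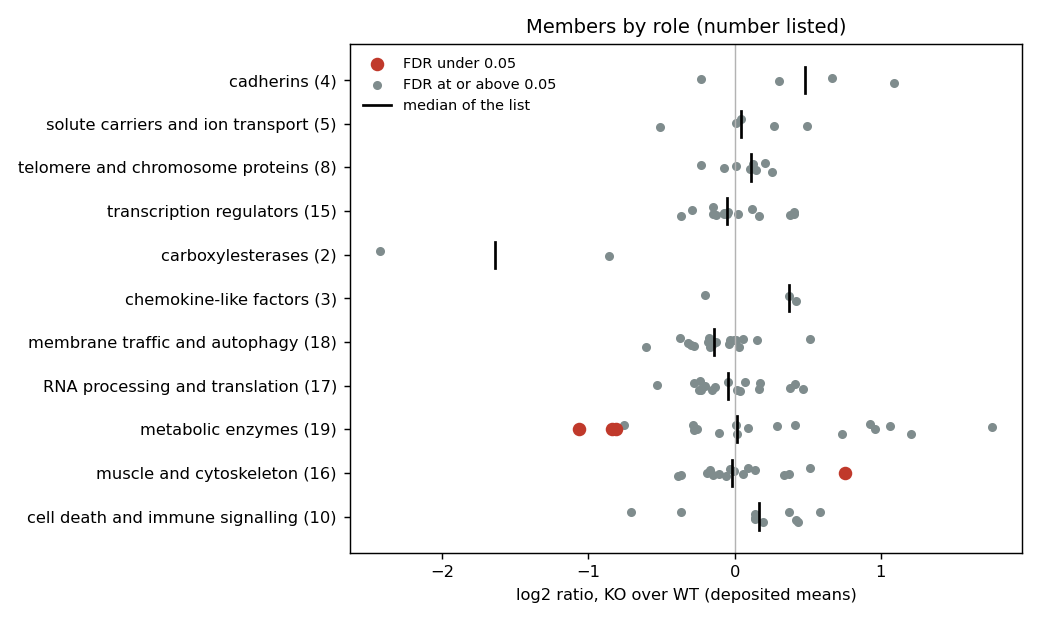
The log2 ratio of KO over WT in the authors' deposited table (horizontal axis) for the members of 11 role lists (rows, with the number of members; a gene may be in several), with an FDR under 0.05 in red and black lines at the medians. The 3 red points below 0 are metabolic enzymes and the 1 above 0 is Tppp3.

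The edges of the window were set by position. Just outside it, 10.3 Mb before Prmt7, lies Got2, the mitochondrial aspartate aminotransferase, at 14318 and 13533 normalised counts in the KO libraries, against 28592 and 27374 in the WT libraries. The first listed member, Cdh11, lies 3.58 Mb before Prmt7 and had 442 and 313 in the KO libraries, against 337 and 276 in the WT libraries, and Cdyl2, just outside the other edge at 10.3 Mb after Prmt7, had 185 and 147 in the KO libraries, against 145 and 146 in the WT libraries.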

How the data were processed

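RNA was extracted with Trizol from frozen tibialis anterior muscle and sequenced on Illumina libraries, per the labels' protocols. The submitters' processing notes name the build mm10; aligner, counter and annotation: not given in the sources used here. In the main table the authors deposited a mean signal per genotype (read counts divided by a factor per library, then averaged), beside a p-value, its FDR and a log2 ratio, from DESeq per the table's name. 1 emptied line was not analysed here. Adjusting the deposited p-value by Benjamini-Hochberg gave the deposited FDR within 0.000136.

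Each mean was solved for whole counts of 2 libraries, with a relative tolerance of 1e-13. All 14617 genes had exactly 1 solution per genotype; 1 step explained 5% of 300 low values in KO and 3.33% in WT, and 2 steps 100% in both. Libraries are thus 2 per genotype although the labels name 3 mice, and nothing shows that they came from separate mice, so p-values measure the spread between libraries.

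Calls use an FDR under 0.05 as deposited by the authors. limma 3.58.1 (R 4.3.3) was fitted on log2 of the normalised count plus 1 over the 14053 genes whose mean reached 10, with trend and robust moderation, KO minus WT, two-sided, Benjamini-Hochberg adjusted over all of them, with 2 residual degrees of freedom. The pseudocount understates changes of low genes. The recovery and the limma fit were tested on simulated data. Of the 133 members, 127 passed the filter. Exon lengths and strands came from GENCODE M21 (133 members matched) and promoter windows from RefSeq GRCm38.p6.

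The members and lists were chosen with earlier results of these data known. Named are members called by either test, the 6 nearest on each side, the 5 largest ratios in each direction with a mean of at least 50, and in each list the most abundant member and those with an unadjusted p under 0.05; Pdp2, Dhodh, Tk2, Ddx19a, 9430091E24Rik, Ces2e, Hp and the edge genes were added after their values were seen. Nqo1 stands in the RNA processing list although it is a quinone reductase. Alternatives were other pseudocounts, filters, scalings, windows, moderation and weights, and leaving out each library.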

Additional observations from a re-analysis of the deposited data

How the results depend on the processing

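In the authors' deposited table, a total of 7 members passed at an FDR of 0.1, and within 2.5 Mb of Prmt7 2 of 82 did; adjusting without X and Y genes, a mean of at least 50 and a window of 5 Mb kept the count within 1.5 times of 4. Leaving out 1 library gave 0 to 6 members called by limma, lowest without WT library 1 and highest without KO library 2, beside 3 with all 4 libraries. The members' median limma log2 difference of 0.0069 was -0.0023 with a mean of at least 50, 0.0564 with total counts, 0.0486 with the upper quartile and -0.0176 with quantile scaling, and -0.0374 to -0.0046 with 1 library left out. Total counts moved the median of all genes by a like amount, to 0.05. The median minus that of other chromosome 8 genes was 0.03, and 0.0298 with a mean of at least 50, 0.0156 with quantile scaling and -0.0056 to 0.0218 with 1 library left out; the cause was not tested. The share of members without overlap was 74% to 86.6% with 1 library left out, where fewer libraries have to be ordered. For the alternative settings, the shares of all genes called or without overlap are not given here. The members' counts and shares under them therefore cannot be set against all genes. Voom weights called 3 members, and without robust moderation 2 were called, with Tppp3 at an adjusted p of 0.054. Prmt7 stayed lower in KO and short of the threshold in all 14 alternatives. The called members Tppp3, Cyb5b, Pdpr and Ldhd kept their direction in all 14 alternatives, at adjusted p-values from 0.0172 to 0.165 for Tppp3, 0.0252 to 0.138 for Cyb5b, 0.0105 to 0.183 for Pdpr and 0.00799 to 0.0853 for Ldhd; of 33 named members, 4 that were not called changed sign in at least 1. No paired analysis was possible because the columns carry no replicate numbers. With 2 libraries per genotype small differences were not detectable.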
